A study of Drosophila melanogaster with 57 samples.

Results

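The 6 genes described here encode urate oxidase (*Uro*) and the oxidases of *Drosophila melanogaster* that carry a molybdenum cofactor and act on purines or aldehydes, namely xanthine dehydrogenase (*ry*, rosy) and the aldehyde oxidases *AOX1*, *AOX2*, *AOX3* and *AOX4*. They are 6 of the 17559 genes listed in each library, and all 6 were found by their FlyBase identifiers. The group was chosen by the CPM of *Uro* (its count scaled to a library total of 1000000 counts on genes), which the study had singled out in these same whole-body and thorax libraries, and the other 5 genes were added by name as members of one cofactor family. For this reason *Uro* in comparisons that use its levels in the deletion strains is given as a description, without a p-value, and counts of calls in those comparisons are over the other 5 genes. The study had also named *AOX1* as changed in deletion strains of these same libraries. Tests of *AOX1* below therefore repeat a reported result and are not separate support, and the counts over 5 genes include it.

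Xanthine dehydrogenase turns hypoxanthine into xanthine and xanthine into uric acid, the last step of purine breakdown before urate. Urate oxidase then opens urate on the way to allantoin, and in adult flies it is known as a gene of the Malpighian tubules, the renal organ of insects. Xanthine dehydrogenase and the aldehyde oxidases share the molybdenum cofactor, which is built by the products of genes such as *cin* and receives its sulphur from the product of *mal*, and flies without functional *cin* or *mal* lack the activity of these enzymes.

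RNA was sequenced from flies that carry CRISPR/Cas9 deletions of genes of hydrogen sulphide production, which are *Cbs* (cystathionine β-synthase, CBS), *Cth* (cystathionine γ-lyase, CSE) and *CG12279* (MST). The groups were CBS(5) and CBS(8), which are separate *Cbs* deletion lines, CBS/CSE(1) and CBS/CSE(2), which lack both *Cbs* and *Cth* and are called DD1 and DD2 below, CSE(8), MST and the control stock 58492. All lines were made from stock 58492, which is itself the control and carries a Cas9 transgene under the actin 5C promoter and mutant alleles of *y*, *w* and *DNAlig4*, and the deletions were made by integrating an mCherry reporter. Flies injected for the CSE and MST deletions were crossed to a *yw* strain. Which of the alleles of the stock each deletion line kept was not given. DD1 was derived from CBS(5) and DD2 from CBS(8), through crosses with balancer strains, and each deletion is represented by 1 or 2 lines. Adults were taken on day 5, after growth at 23 °C in vials of 20. Each of the 7 strains gave 3 libraries of whole females and 3 of whole males, CBS(5) and the control gave 3 of thoraxes in each sex, and 3 further libraries of whole males are labelled as DD2 backcrossed on yw. Nothing in the labels says that the 3 libraries of a group came from separate vials, so p-values measure only the spread between these libraries, which may be technical.

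Counts on genes were between 19612605 and 28768678 in libraries of whole females, between 9705034 and 18623886 in whole males and between 10645727 and 31616200 in thoraxes. *Cbs* was at 0.689 to 1.36 CPM in whole females of the 4 strains that lack it, against 199 to 204 CPM in control females. *Cth* was at 15.4, 20.4 and 26.5 CPM in CSE(8) males, against 58.1 to 71.4 CPM in control males, so that a part of its signal remained in these 3 libraries. The backcrossed libraries went against their label, with *Cbs* at 34.4 and 33.3 CPM and *Cth* at 45.4 and 32.7 CPM in the libraries labelled backcross replicates 1 and 2, while replicate 3 held only 7321 counts. The first library of control female thoraxes stood apart with 31.3% of its reads ambiguous between genes, against 3.34% to 6.49% in the other 11 thorax libraries. Replicate 3 of the control thoraxes also stood apart, with 2.26% (females) and 4.56% (males) of reads on no feature, against 22.0% to 37.5% in the other 10. All thorax groups held both eye markers, *ninaE* and *Arr2*, with group medians of their summed level between 3866 and 9001 CPM, which is above the medians of all whole-body groups of the same sex, and all 7 Malpighian tubule markers. The label thorax is therefore used below for what the libraries are called, not for a dissected tissue free of other organs. The study describes its female thorax samples as lacking ovaries and spermathecae. Ovary markers (*osk*, *nos*, *bcd* and *otu*) were found in some male libraries, with summed levels up to 692 CPM in CBS(5), 460 CPM in CBS(8), 355 CPM in CSE(8) and 199 CPM in control males, against at most 20.6 CPM in DD1, 15.9 CPM in DD2 and 19.2 CPM in MST males.

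The genes lie in 3 places of the genome (build dm6, BDGP6 annotation of Ensembl). *Uro* (FBgn0003961) is on chromosome arm 2L from 7780085 to 7781415 on the plus strand, and *ry* (FBgn0003308) is on 3R from 13032528 to 13038020 on the plus strand. The 4 aldehyde oxidase genes form a tandem cluster of 20697 bp on the minus strand of 3R. *AOX1* (FBgn0267408) runs from 15532137 to 15537292, *AOX2* (FBgn0038348) from 15537713 to 15542414, *AOX3* (FBgn0038349) from 15542748 to 15548188 and *AOX4* (FBgn0038350) from 15548628 to 15552833. The gaps between neighbours are 420, 333 and 439 bp. No member overlaps another gene in this annotation. The version used for counting was not given, so whether any of their reads were set aside as ambiguous is not known.

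Neighbours in the cluster differed widely in level. Per kilobase of exon, control males had a mean of 254 CPM for *AOX1*, 61.2 CPM for *AOX3*, 19.4 CPM for *Uro*, 15.3 CPM for *ry*, 0.93 CPM for *AOX2* and 0.90 CPM for *AOX4* (n = 3). In this order *Uro* overlapped *ry* and *AOX2* overlapped *AOX4* between libraries. Control females had the same order per kilobase, with means of 32.6, 29.2, 7.87, 3.19, 0.33 and 0.14 CPM. In the strains without *Cbs* the mean of *Uro* came near or above that of *AOX1*. Per kilobase it was 422 CPM in DD2 males (*AOX1* 354 CPM), 389 CPM in CBS(8) males (283 CPM), 266 CPM in CBS(5) males (275 CPM) and 171 CPM in DD1 males (273 CPM). In females it was 158 CPM in DD2 (*AOX1* 106 CPM), 80.6 CPM in CBS(5) (72.2 CPM), 84.6 CPM in CBS(8) (86.1 CPM) and 58.4 CPM in DD1 (78.9 CPM), so that *Uro* had the higher mean in 4 of the 8 groups. Of these 4, only in DD2 males did its libraries not overlap those of *AOX1*. In CBS(5) females *Uro* had 61.7, 39.6 and 140 CPM per kilobase, against 65.0, 70.5 and 81.0 CPM for *AOX1*. In DD2 females it had 114, 74.5 and 285 CPM, against 113, 96.0 and 110 CPM. Both of these female means rest on replicate 3.

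All 6 genes were lower in control females than in control males. *AOX1* had 146, 138 and 131 CPM in control females, against 1004, 1057 and 1157 CPM in control males. *ry* had 15.3, 12.5 and 13.7 CPM in control females, against 62.5, 63.3 and 73.8 CPM in control males. The libraries of the sexes did not overlap in any of the 6 genes, and the share of all genes without such overlap was not computed. In a fit of all 42 libraries of whole flies the log2 difference, females against males, was -2.84 ± 0.14 (SE) for *AOX1* (edgeR quasi-likelihood test, Benjamini-Hochberg adjusted p = 1.82e-17), -2.15 ± 0.21 for *ry* (5.31e-11), -2.53 ± 0.41 for *AOX4* (9.78e-07), -1.39 ± 0.29 for *AOX2* (5.32e-05), -1.19 ± 0.40 for *Uro* (0.00699) and -0.95 ± 0.12 for *AOX3* (1.59e-08). The count of 6 of 6 stands beside 90.2% of 13535 genes called in the same comparison, whose median was -0.86 on the log2 scale. *Uro*, *AOX2* and *AOX3* were thus close to the median gene, and with scaling factors taken from genes at least as high in thorax as in whole flies (thorax-based TMM) they turned to 0.32, 0.13 and 0.57, while *ry*, *AOX1* and *AOX4* kept their direction. Without replicate 1 of every group, *Uro* no longer passed the threshold (adjusted p = 0.0501). Whole females contain ovaries, and in bulk samples fewer cells of a type and less RNA in each cell cannot be told apart.

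*Uro* stood far above the control in every strain that lacks *Cbs*, in both sexes. In females it had 77.8, 49.9 and 177 CPM in CBS(5), 106, 104 and 110 CPM in CBS(8), 63.9, 65.2 and 91.8 CPM in DD1 and 144, 94.0 and 359 CPM in DD2, against 10.9, 11.1 and 7.77 CPM in control females. In males it had 362, 197 and 448 CPM in CBS(5), 418, 459 and 596 CPM in CBS(8), 284, 205 and 158 CPM in DD1 and 549, 488 and 560 CPM in DD2, against 21.6, 19.9 and 31.9 CPM in control males. The lowest library of any of these 8 groups lay above the highest control library of its sex.

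The log2 fold changes of *Uro* in females were 3.36 ± 0.54 (SE) for CBS(5), 3.43 ± 0.54 for CBS(8), 2.85 ± 0.53 for DD1 and 4.35 ± 0.56 for DD2. In males they were 3.88 ± 0.28, 4.38 ± 0.29, 3.10 ± 0.27 and 4.49 ± 0.29, in the same order of strains. In the other deletions the values were smaller. CSE(8) females had 20.4, 18.9 and 18.02 CPM and CSE(8) males 57.6, 70.0 and 60.7 CPM, both above every control library of their sex, with log2 fold changes of 0.89 ± 0.52 and 1.40 ± 0.26. MST females had 9.05, 17.96 and 3.88 CPM and MST males 29.2, 34.5 and 28.3 CPM, which overlapped the control in both sexes (-0.02 ± 0.52 and 0.34 ± 0.26).

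**Figure D1:**
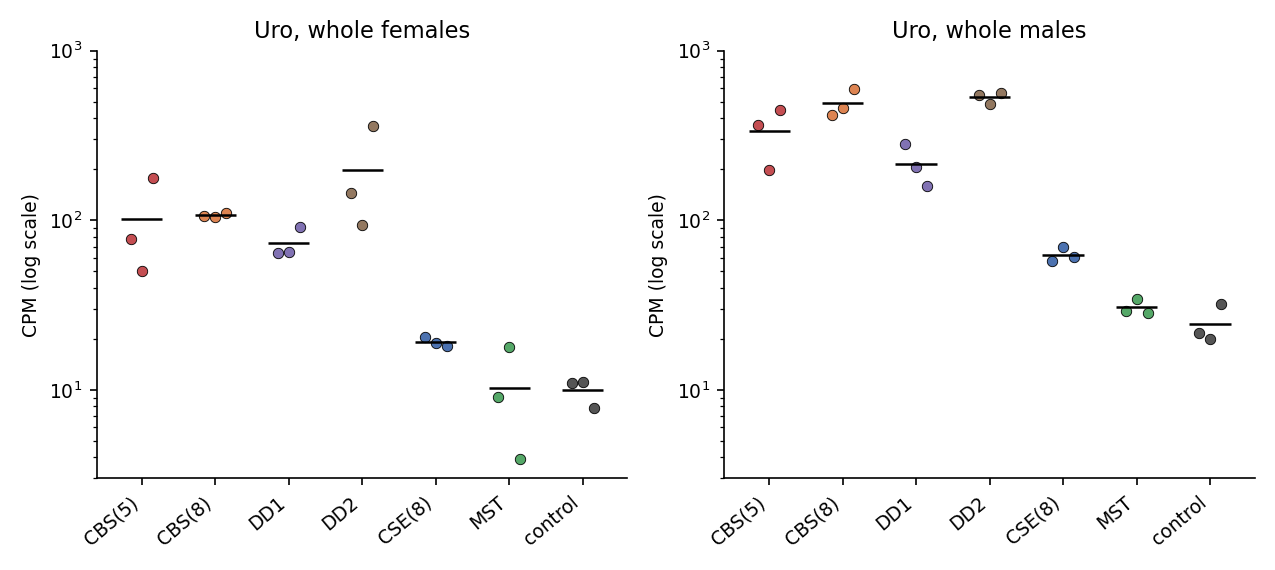
*Uro* in single libraries of whole females (left) and whole males (right), in CPM on a log scale, by strain with the control at the right of each panel. Points are libraries and bars are group means of 3; the 12 libraries of each sex without *Cbs* start at 49.9 CPM in females and 158 CPM in males, against at most 11.1 and 31.9 CPM in the control.

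The 7 Malpighian tubule markers, which did not include *Uro*, also moved in these comparisons. They include the potassium channel gene *Irk3* and the neuropeptide receptor genes *CapaR* and *Lkr*. The study had named *Irk3*, *salt* and *CapaR* of this list as raised in deletion strains of these same libraries. Counts of these markers therefore partly repeat a reported result and are not separate support. Called higher against the control were 4 of the 7 in CBS(5) females, 4 in CBS(8) females, 6 in DD1 females and 6 in DD2 females, and 5, 6, 6 and 7 in males of the same strains, and 0 were called lower. Of all genes tested, 15.2%, 24.6%, 30.8% and 66.3% were called in these females and 32.7%, 32.3%, 12.7% and 18% in these males. The median log2 fold changes of the 7 markers were 1.505, 1.40, 1.82 and 2.56 in females and 1.08, 1.37, 1.84 and 2.05 in males. *Uro* exceeded the highest of the 7 markers in 7 of these 8 comparisons, the exception being DD1 females, where *Irk3* reached 3.23. In CSE(8) the marker median was 0.57 in females and 0.48 in males, and in MST it was 0.19 and 0.08. The summed level of the 7 markers was 1041 to 1175 CPM in DD2 males, against 319 to 349 CPM in control males. The part of these markers in the level of *Uro* was not tested.

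**Figure D2:**
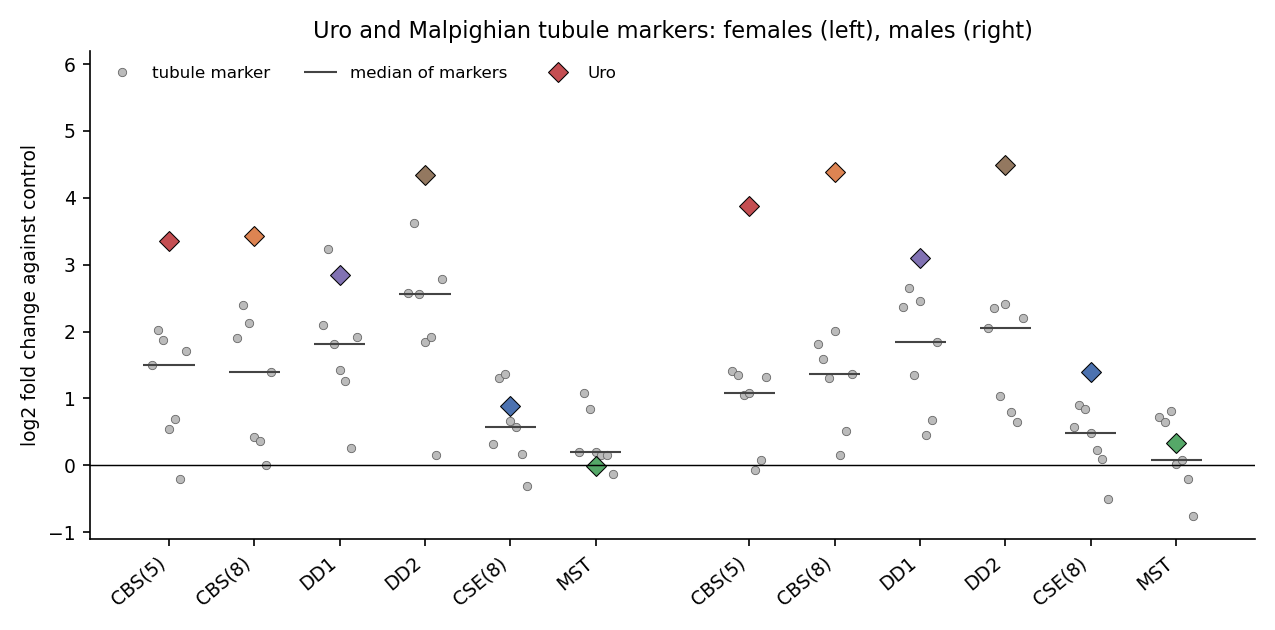
Log2 fold change against the control of *Uro* (diamonds) and of 7 Malpighian tubule markers (grey points; the line is their median) in whole females (left) and whole males (right), by strain. The diamonds lie above all grey points in 7 of the 8 groups without *Cbs* and within them in CSE(8) females and both MST groups.

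Counts over the 5 genes other than *Uro* are read against all genes tested. In whole females 3 of 5 were called in CBS(5), where 15.2% of 10548 genes were, 5 of 5 in CBS(8), where 24.6% were, 4 of 5 in DD1, where 30.8% were, and 4 of 5 in DD2, where 66.3% were. The count was 0 of 5 in CSE(8) females (2.73% of genes) and 0 of 5 in MST females (0.891%). In whole males 2 of 5 were called in CBS(5), where 32.7% of 13036 genes were, 2 in CBS(8) (32.3%), 2 in DD1 (12.7%), 3 in DD2 (18%), 1 in CSE(8) (3.71%) and 0 in MST (1.54%). Over the 6 strains this made 12 higher and 4 lower calls of 30 in females, and 2 higher and 8 lower calls of 30 in males. All strains of a sex were compared with the same 3 control libraries. With thorax-based TMM, which moved the median of all genes in females to between -0.49 and -0.98 in the 4 strains without *Cbs*, the female split became 3 higher and 4 lower calls.

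*ry*, the gene of the step that makes urate, was higher in females of 3 of the 4 strains without *Cbs*. It had 29.9, 21.2 and 29.8 CPM in CBS(8) females, 27.3, 25.2 and 31.9 CPM in DD1 females and 38.9, 24.8 and 50.9 CPM in DD2 females, against 15.3, 12.5 and 13.7 CPM in control females. None of these libraries overlapped the control. The log2 fold changes were 0.96 ± 0.27 in CBS(8) (edgeR, adjusted p = 0.016), 0.98 ± 0.27 in DD1 (0.0134) and 1.48 ± 0.27 in DD2 (0.000393). CBS(5) females had 19.0, 17.7 and 35.9 CPM, also above the control, but did not pass the test (0.79 ± 0.27, adjusted p = 0.0564), which it did without CBS(5) replicate 1 or 2 (0.96 and 0.98). In whole males *ry* passed in 0 of 6 strains, with log2 fold changes between -0.30 and 0.14. The female calls depended on the scaling, since with thorax-based TMM the log2 fold changes fell to 0.30 in CBS(8), 0.40 in DD1 and 0.37 in DD2 (adjusted p = 0.141, 0.0738 and 0.0694). The call in CBS(8) was also lost without control replicate 2 or without CBS(8) replicate 1 or 3 (0.85, 0.91 and 0.88), and that in DD1 without DD1 replicate 3 (0.88).

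*AOX1*, the most abundant aldehyde oxidase, rose in females of all 4 strains without *Cbs*. It had 275, 298 and 342 CPM in CBS(5), 404, 297 and 391 CPM in CBS(8), 336, 260 and 405 CPM in DD1 and 479, 406 and 465 CPM in DD2, against 146, 138 and 131 CPM in control females. The lowest of these 12 libraries was above the highest control library. The log2 fold changes were 1.13 ± 0.15 (edgeR, adjusted p = 8.17e-05), 1.40 ± 0.15 (4.78e-06), 1.23 ± 0.15 (2.2e-05) and 1.71 ± 0.15 (4.22e-07). With thorax-based TMM the call in CBS(5) was lost (0.59, adjusted p = 0.0752).

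In males *AOX1* passed the test in 2 strains, in opposite directions. DD2 males had 1537, 1464 and 1483 CPM, above the control males at 1004, 1057 and 1157 CPM (0.53 ± 0.14, adjusted p = 0.0157). CSE(8) males had 592, 731 and 650 CPM, below every control library (-0.66 ± 0.14, adjusted p = 0.012). CBS(5), CBS(8) and DD1 males overlapped the control. MST males had 857, 849 and 813 CPM, also below every control library, and did not pass (-0.34 ± 0.14, adjusted p = 0.249). The call in DD2 males was lost without control replicate 1 or 2 (0.46 and 0.49) and when the level of ovary markers entered the male fit as a covariate, an alternative chosen after seeing the data (0.28, adjusted p = 0.158). The call in CSE(8) males was lost without control replicate 3 (-0.61) or CSE(8) replicate 1 (-0.58).

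*AOX3*, the next gene but one of the cluster, was higher in the same female strains by smaller amounts. It had 167, 166 and 182 CPM in CBS(5), 201, 142 and 188 CPM in CBS(8), 178, 164 and 188 CPM in DD1 and 188, 197 and 185 CPM in DD2, against 141, 141 and 118 CPM in control females. These libraries did not overlap the control, although the lowest of CBS(8) was at 142 CPM, against 141 CPM in the highest of the control. The log2 fold changes were 0.35 ± 0.10 (adjusted p = 0.0235), 0.41 ± 0.10 (0.00567), 0.37 ± 0.10 (0.0104) and 0.51 ± 0.10 (0.000497), and with thorax-based TMM they turned to -0.17, -0.23, -0.19 and -0.48, so that the direction of *AOX3* in females rests on the scaling. The call in CBS(5) was lost without control replicate 3 or CBS(5) replicate 3 (0.29 and 0.27) and that in DD1 without control replicate 3 or DD1 replicate 3 (0.31 and 0.33). In DD2 males it had 361, 373 and 365 CPM, against 275, 276 and 287 CPM in control males (0.45 ± 0.15, adjusted p = 0.0467), a call that was lost without any 1 of the 6 libraries (0.40 to 0.48).

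Markers of some other tissues moved with *ry*, *AOX1* and *AOX3* in whole females. The study had named both eye markers used here as activated in strains without *Cbs*, mostly in females, so their rise repeats a reported result. The 2 eye markers (*ninaE* and *Arr2*) summed to 918 to 2082 CPM in CBS(5), 1531 to 1831 CPM in CBS(8), 1020 to 1598 CPM in DD1 and 1578 to 2538 CPM in DD2, against 616 to 912 CPM in control females. The 4 flight muscle markers summed to 205 to 707 CPM in CBS(5), 297 to 299 CPM in CBS(8), 244 to 337 CPM in DD1 and 253 to 758 CPM in DD2, against 134 to 174 CPM in control females. Both lists lay above the control in all 12 libraries, whereas the 4 ovary markers lay below it. Ovary markers summed to 1451 to 2250 CPM in CBS(5), 1880 to 1907 CPM in CBS(8), 1759 to 1978 CPM in DD1 and 1136 to 1844 CPM in DD2, against 2362 to 2493 CPM in control females. Fat body markers overlapped the control in CBS(5) and CBS(8) females and gut markers in CBS(5) females. In the remaining strains without *Cbs* both lists lay above it. CSE(8) females, in which *ry*, *AOX1* and *AOX3* were not called, also had eye (1004 to 1144 CPM) and flight muscle markers (240 to 265 CPM) above the control. The part of these tissues in the levels of the 3 genes was not tested.

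*AOX2* lies between *AOX1* and *AOX3* but was read at 7 to 66 counts in a library of whole flies. In females of CBS(8) it had 2.76, 2.02 and 3.37 CPM, against 1.49, 1.14 and 1.25 CPM in control females, without overlap (1.07 ± 0.31, adjusted p = 0.0186). DD1 females, at 2.71, 2.12 and 2.15 CPM, were also above every control library, and CSE(8) females, at 0.595, 0.867 and 0.319 CPM, and MST females, at 0.679, 1.02 and 0.422 CPM, were below. These 3 did not pass (0.80 ± 0.31, -1.17 ± 0.34 and -0.93 ± 0.34, adjusted p = 0.0576, 0.0894 and 0.371). In males it had 1.98, 1.95 and 1.32 CPM in CBS(5), 1.47, 2.52 and 1.00 CPM in CBS(8) and 2.41, 1.64 and 1.81 CPM in DD1, against 3.59, 3.57 and 3.88 CPM in control males. These 9 libraries were all below the control, with log2 fold changes of -0.98 ± 0.27 (adjusted p = 0.0127), -1.05 ± 0.27 (0.00779) and -0.95 ± 0.27 (0.0262). The male libraries of DD2, CSE(8) and MST were also below the control, at 2.16 to 3.01, 2.21 to 3.29 and 1.71 to 2.62 CPM, but did not pass the test. The female call in CBS(8) was lost without control replicate 2 or 3 or CBS(8) replicate 3 (0.93, 1.07 and 0.89) and with thorax-based TMM (0.42, adjusted p = 0.348), and the male call in DD1 without control replicate 1, 2 or 3 or DD1 replicate 2 or 3 (-0.97 to -0.83) and with the ovary covariate (-0.50, adjusted p = 0.283).

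**Figure D3:**
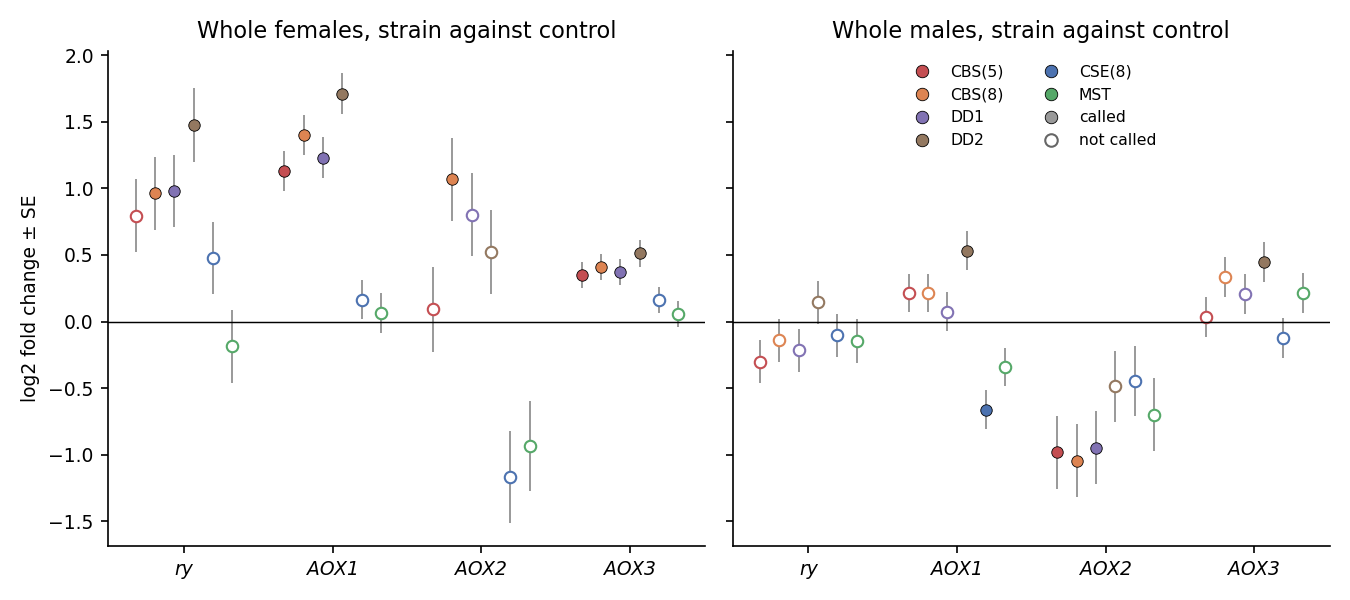
Log2 fold change against the control (± SE, n = 3 libraries in each group) of *ry*, *AOX1*, *AOX2* and *AOX3* in whole females (left) and whole males (right), coloured by strain. Filled points passed an adjusted p of 0.05 and open points did not; *AOX1* in the 4 strains without *Cbs* lies between 1.13 and 1.71 in females and between 0.08 and 0.53 in males.

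In whole flies *AOX4*, the last gene of the cluster, went the opposite way to *Uro* and was almost absent in the strains without *Cbs*. Whole females had 3, 1 and 0 counts in CBS(5), 0, 0 and 1 in CBS(8), 1, 3 and 1 in DD1 and 0, 0 and 4 in DD2, against 9, 14 and 12 counts in control females. Whole males had 1, 2 and 3 counts in CBS(5), 2, 6 and 7 in CBS(8), 6, 9 and 2 in DD1 and 4, 3 and 8 in DD2, against 32, 49 and 60 counts in control males. No library of these 8 groups reached the lowest control library of its sex.

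Because the fitted fold of so few counts depends on the prior count, ratios of summed counts per total are given for *AOX4*, with exact 95% intervals that cover counting error only. CBS(5) females had 4 counts against 35 in control females and were 10.3-fold lower (3.67 to 39.7), CBS(8) females had 1 against 35 (34.8-fold, 5.84 to 1411), DD1 females 5 against 35 (8.00-fold, 3.12 to 26.1) and DD2 females 4 against 35 (9.27-fold, 3.32 to 35.9). CBS(5) males had 6 counts against 141 in control males and were 25.7-fold lower (11.5 to 71.2), CBS(8) males 15 against 141 (10.6-fold, 6.21 to 19.45), DD1 males 17 against 141 (8.82-fold, 5.32 to 15.6) and DD2 males 15 against 141 (9.03-fold, 5.29 to 16.6). The edgeR test called all 8 lower, with adjusted p between 0.00155 and 0.00677 in females and between 4.08e-06 and 3.76e-05 in males. In females CSE(8) had 12, 11 and 18 counts and MST had 10, 11 and 15, and in males CSE(8) had 52, 60 and 28 counts and MST had 31, 26 and 32, all 4 groups overlapping the control. None of the 4 passed the test, and their ratios to the control were 1.11 (0.692 to 1.80), 0.972 (0.593 to 1.59), 0.871 (0.684 to 1.11) and 0.719 (0.545 to 0.945). None of the alternatives that tested *AOX4* ended one of the 8 calls; at least 10 counts in every library left it untested.

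**Figure D4:**
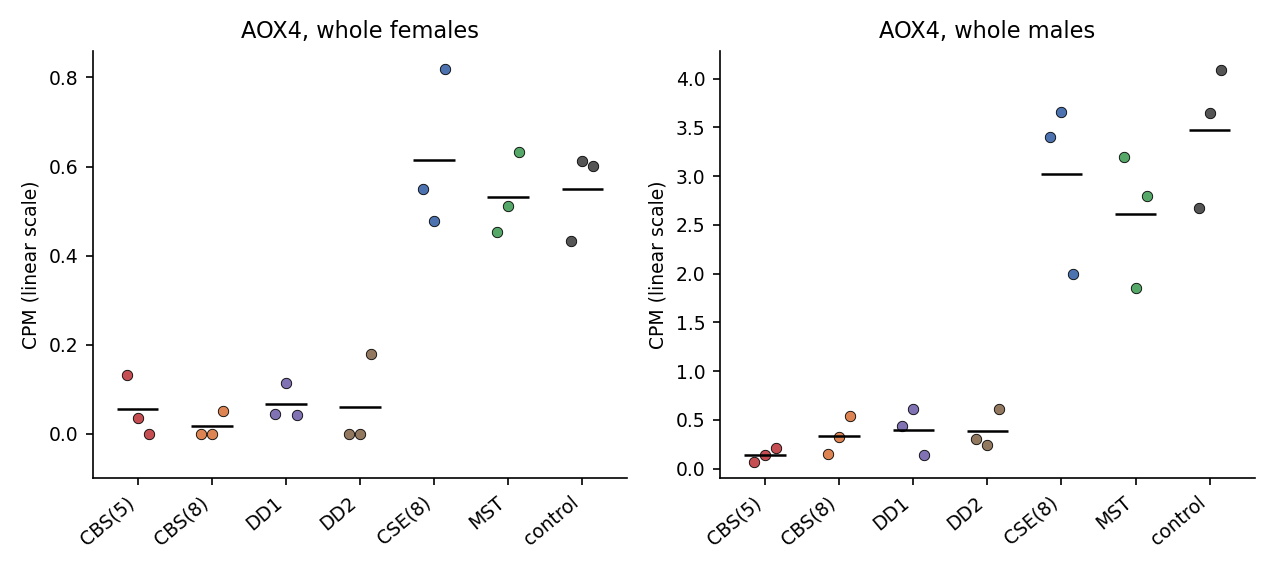
*AOX4* in single libraries of whole females (left) and whole males (right), in CPM on a linear scale, by strain with the control at the right of each panel. Points are libraries and bars are means of 3; the 4 strains without *Cbs* lie between 0 and 0.18 CPM in females and between 0.066 and 0.617 CPM in males, against 0.433 to 0.612 and 2.67 to 4.08 CPM in the control.

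The difference between the sexes in the effect of each deletion was tested in the fit of 42 libraries. For *AOX1* the log2 fold change in females exceeded that in males by 0.90 ± 0.18 for CBS(5) (edgeR, adjusted p = 0.00211), 1.14 ± 0.18 for CBS(8) (6.92e-05), 1.26 ± 0.18 for DD1 (1.25e-05), 1.12 ± 0.18 for DD2 (4.68e-05) and 0.83 ± 0.18 for CSE(8) (0.0161). For *ry* it exceeded that in males by 1.06 ± 0.29 for CBS(5) (0.0174), 1.06 ± 0.29 for CBS(8) (0.0118), 1.31 ± 0.29 for DD1 (0.00176) and 1.27 ± 0.29 for DD2 (0.00149). *AOX2* differed in CBS(8) (2.07 ± 0.41, 0.000812) and DD1 (1.87 ± 0.41, 0.00176), where its log2 fold changes were 1.07 and 0.80 in females and -1.05 and -0.95 in males. *AOX3* and *AOX4* passed this test in 0 of 6 strains each. For *Uro* the difference was below 0 in all 6, with -0.57 ± 0.55 for CBS(5), -1.001 ± 0.55 for CBS(8), -0.13 ± 0.55 for DD1, -0.23 ± 0.55 for DD2, -0.50 ± 0.56 for CSE(8) and -0.38 ± 0.56 for MST. The calls are 2, 3, 3 and 2 of 5 genes in CBS(5), CBS(8), DD1 and DD2, where 13.6%, 17.8%, 21.5% and 31.3% of 13535 genes passed, and 1 and 0 of 5 in CSE(8) and MST, where 0.813% and 0.214% did. All 11 calls were higher in females, and over all genes the median difference was 0.09, 0.10, 0.38 and 0.21 for the 4 strains without *Cbs*, with 2565 of the 2911 genes called in DD1 higher in females.

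The differences between the sexes rested on the scaling and on replicate 1. With thorax-based TMM 4 of 30 tests passed, of which 3 were higher in females and 1, that of *AOX3* in DD2 (-0.79), was lower. Without replicate 1 of every group 3 tests passed, without replicate 2, 11, and without replicate 3, 10. Without replicate 3 *AOX2* passed in DD2 (1.29), and *ry* in CBS(5) (0.74) and *AOX1* in CSE(8) (0.69) did not. Summed ovary markers, given above for the strains without *Cbs*, were at 2250 to 2340 CPM in CSE(8) females, against 2362 to 2493 CPM in control females. Their part in the differences between the sexes was not tested.

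The double deletions were compared with the *Cbs* line each came from. These pairs differ in the loss of *Cth* and in the crosses with balancer strains and the CSE line, which cannot be told apart. *Uro* had 284, 205 and 158 CPM in DD1 males, against 362, 197 and 448 CPM in CBS(5) males, and the libraries overlapped (-0.77 ± 0.25). It differed by -0.50 ± 0.48 in DD1 females against CBS(5), 0.91 ± 0.49 in DD2 females against CBS(8) and 0.11 ± 0.25 in DD2 males against CBS(8). Of the 7 tubule markers, 5 were higher in DD1 males (median 0.60), 1 in DD1 females (0.58), 4 in DD2 females (1.23) and 3 in DD2 males (0.41), so that *Uro* and the marker median differed in sign in both sexes of DD1. Ovary markers summed to 11.6 to 20.6 CPM in DD1 males, against 22.5 to 692 CPM in CBS(5) males, and with their level as a covariate the value of *Uro* was -1.17. The part of these markers was not tested. Over the other 5 genes the counts were 0 of 5 in both female comparisons, where 3.72% (DD1) and 5.41% (DD2) of genes were called, 0 of 5 in DD1 males, where 36.1% were, and 0 of 5 in DD2 males, where 9.1% were. *ry* passed in DD2 females without DD2 replicate 2 (0.76, adjusted p = 0.0275). In males the test was passed by *AOX4* in DD1 without DD1 replicate 3 (1.80), *AOX3* in DD1 without CBS(5) replicate 3 (0.39) and with thorax-based TMM (0.33), and *AOX1* in DD2 without CBS(8) replicate 3 (0.46).

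In the libraries labelled thorax *Uro* again stood above the control. CBS(5) female thoraxes had 286, 204 and 303 CPM, against 3.32, 48.0 and 13.2 CPM in control female thoraxes, and CBS(5) male thoraxes had 437, 502 and 340 CPM, against 13.9, 27.2 and 7.01 CPM in control male thoraxes. The groups did not overlap in either sex, and the log2 fold changes were 3.30 ± 0.50 in females and 4.66 ± 0.39 in males. The 7 tubule markers summed to 312 to 489 CPM in CBS(5) female thoraxes, against 52.2 to 243 CPM in control female thoraxes, and to 380 to 625 CPM in CBS(5) male thoraxes, against 195 to 356 CPM in control male thoraxes. These sums did not overlap in either sex, and the median log2 fold changes of the markers were 0.62 in females and 0.88 in males. With any 1 thorax library left out, the log2 fold change of *Uro* lay between 3.04 and 3.84 for females and between 4.42 and 5.08 for males.

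The other oxidases did not pass in thoraxes. *AOX1* had 360, 365 and 533 CPM in CBS(5) female thoraxes, against 101, 314 and 972 CPM in control female thoraxes (-0.87 ± 0.69, adjusted p = 0.947), and 565, 608 and 593 CPM in CBS(5) male thoraxes, against 706, 593 and 979 CPM in control male thoraxes (-0.65 ± 0.38, adjusted p = 0.714). The control libraries of *AOX1* spread widely and overlapped CBS(5) in both sexes. The highest control library was replicate 3 in each sex, which stood apart in its reads on no feature, and without it the values were 0.14 in females and -0.11 in males. *AOX3* had 191, 204 and 228 CPM in CBS(5) female thoraxes, against 38.1, 187 and 175 CPM in control female thoraxes (-0.02 ± 0.33), and 224, 228 and 223 CPM in CBS(5) male thoraxes, against 262, 253 and 242 CPM in control male thoraxes (-0.37 ± 0.21). *ry* had 83.8, 46.9 and 52.0 CPM in CBS(5) female thoraxes, against 10.1, 43.8 and 27.9 CPM in control female thoraxes (0.44 ± 0.29). The groups did not overlap in CPM in these 3 comparisons, but none passed (adjusted p = 0.989, 0.694 and 0.947). *AOX4* had 1, 10 and 1 counts in CBS(5) female thoraxes, against 0, 0 and 5 in control female thoraxes, and 5, 4 and 0 in CBS(5) male thoraxes, against 0, 0 and 11 in control male thoraxes, and was too low to be tested, as was *AOX2* in females. All counts of *AOX4* in control thoraxes came from replicate 3. Of 7 tests over both sexes 0 were called, where edgeR called 0% of 10153 genes in females and 1.85% of 11337 genes in males. Of the 10153 genes 597 had an unadjusted p under 0.05 and DESeq2 called 173, and DESeq2 also called 0 of the 7.

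**Figure D5:**
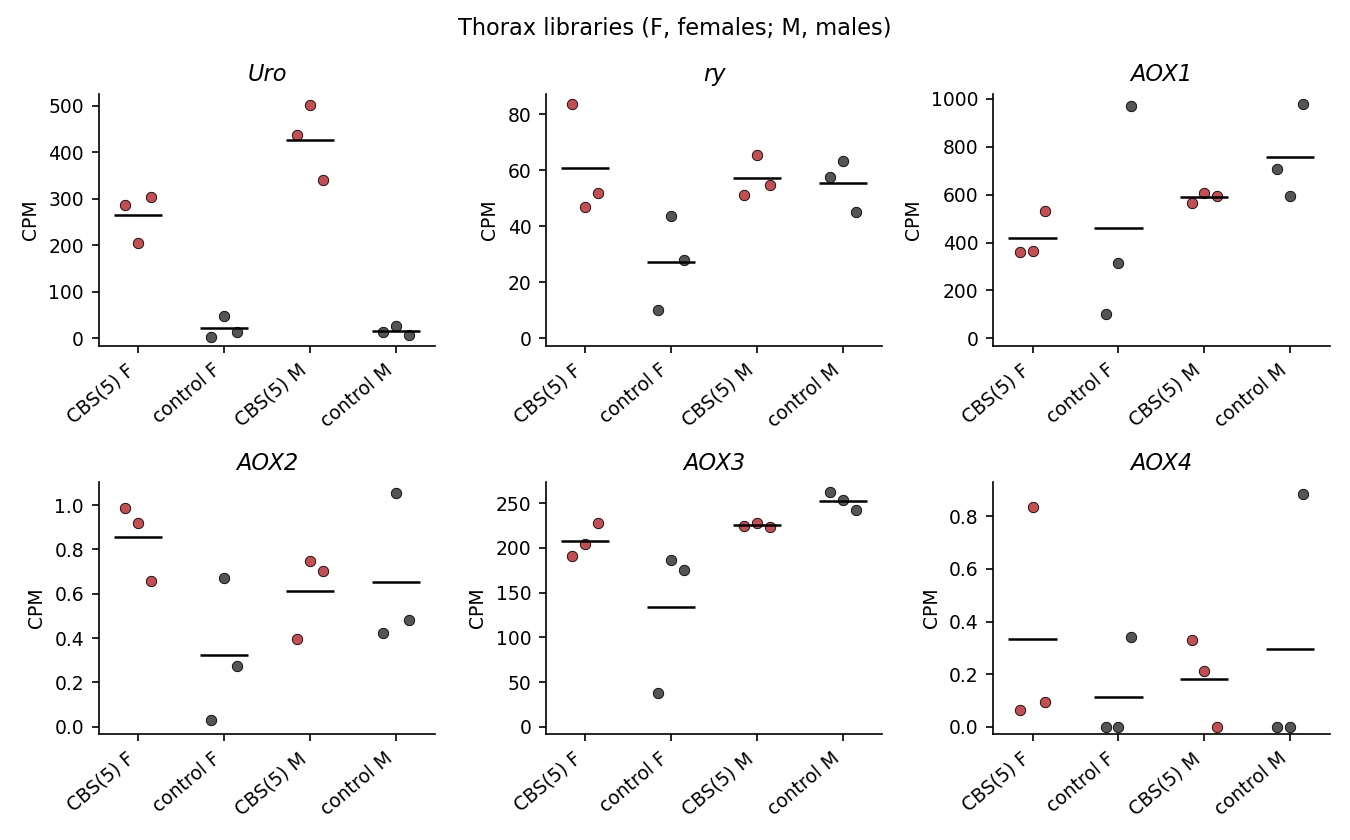
CPM (linear scales) of the 6 genes in single thorax libraries of CBS(5) and the control, females (F) at the left and males (M) at the right of each panel. Points are libraries and bars are means of 3; *Uro* lies between 204 and 502 CPM in CBS(5), against 3.32 to 48.0 CPM in the control, and *AOX2* and *AOX4* lie at 1.05 CPM or below.

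Thoraxes and whole flies of the control were compared to see where the genes are read. *AOX2* was lower in thoraxes, with 0.0316, 0.671 and 0.273 CPM against 1.49, 1.14 and 1.25 CPM in whole flies in females (-1.33 ± 0.42, adjusted p = 0.0146), and 0.422, 1.05 and 0.483 CPM against 3.59, 3.57 and 3.88 CPM in whole flies in males (-1.91 ± 0.35, adjusted p = 0.000831). *AOX4* was lower in male thoraxes, with 11 counts in 1 library and 0 in the other two, against 141 counts over 3 libraries of whole males (14.1-fold by summed counts, exact 95% interval 7.66 to 29.0; adjusted p = 0.0321). In females *AOX1* (2.70 ± 0.54, adjusted p = 0.000966), *ry* (1.91 ± 0.30, 0.000207), *Uro* (1.69 ± 0.49, 0.00897) and *AOX3* (0.89 ± 0.25, 0.00762) were higher in thoraxes after scaling, though in CPM their control libraries overlapped those of whole females. The counts over all 6 genes were 5 of 6 in females, where 72.3% of 10762 genes were called, and 2 of 6 in males, where 57% of 12992 genes were.

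Some of these calls rested on single replicates. Those of *AOX2* and *AOX3* in females were lost without replicate 1 of every group (-0.93 and 1.02), those of *Uro* and *AOX3* without replicate 2 (1.27 and 1.12) and that of *AOX2* without replicate 3 (-1.29). Without replicate 3, whose thorax libraries stood apart, *AOX1* and *AOX3* in females passed with 1.70 and 0.59. That of *AOX4* in males was lost without replicate 1 or 2 (-2.31 and -2.12). *AOX4* in females, at 5 against 35 counts, passed only without replicate 3, the replicate that holds all 5 thorax counts.

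The libraries labelled DD2 backcrossed on yw were compared with DD2 males. *Uro* had 44.1 and 26.6 CPM in replicates 1 and 2 of the libraries labelled backcross and 4 counts of 7321 in replicate 3, against 549, 488 and 560 CPM in DD2 males. *AOX4* had 39, 10 and 0 counts in the same libraries, against 4, 3 and 8 counts in DD2 males. Replicates 1 and 2 thus lay below all DD2 libraries for *Uro* and above them for *AOX4*, and the same libraries held *Cbs* and *Cth*, as given above. In a fit of 24 male libraries the log2 fold change of *Uro* against DD2 was -3.76 ± 0.38. Lower than in DD2 were *AOX1* (-1.52 ± 0.19, edgeR, adjusted p = 5.33e-06), *AOX3* (-0.84 ± 0.18, 0.00196) and *ry* (-0.80 ± 0.20, 0.00686), and *AOX4* was higher (4.65-fold by summed counts, exact 95% interval 2.57 to 8.93; adjusted p = 0.00537). These are 4 of 5 genes, where 19.6% of 13073 genes were called, and all 4 calls held without the library of 7321 counts. DESeq2, which called 825 genes, did not call *ry* (-0.70, adjusted p = 0.124) or *AOX4* (2.62, 0.0654). Without replicate 1 of both groups *AOX4* (0.96, adjusted p = 0.524), *ry* (-0.87, 0.167) and *AOX3* (-0.76, 0.193) lost the call, and without replicate 2 *ry* (-0.56, 0.146) and *AOX3* (-0.74, 0.0665) did. *Irk3* and 5 more of the 7 tubule markers were called lower, with a marker median of -1.20. Flight muscle markers summed to 1229 to 3043 CPM (median 2345 CPM) in the libraries labelled backcross, a range that includes the library of 7321 counts. In DD2 males they summed to 580 to 834 CPM. The part of these tissues was not tested, and whether the backcross or the presence of *Cbs* and *Cth* goes with these values cannot be told apart.

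Beside the 6 genes, 30 genes of purine and cofactor metabolism were examined, of which 26 could be tested in females and 27 in males. *Mocs2A* and *Mocs2B* of cofactor synthesis and the nucleotidase gene *veil* were listed at 0 in all libraries. *Mocs2A* and *Mocs2B* have the same exon length of 1420 bp. Whether their reads were set aside as ambiguous between overlapping genes was not tested, so a count of 0 is not read as absence of expression. Over the list, 9 genes were called higher and 4 lower in CBS(8) females, 9 and 3 in DD1 females, 11 and 7 in DD2 females and 1 and 1 in CBS(5) females, with median log2 fold changes of 0.23, 0.10, 0.14 and 0.02, against 0.01, 0.03, 0.02 and -0.01 over all genes tested. These are 50.0%, 46.2%, 69.2% and 7.69% of the genes tested in the list, where 24.6%, 30.8%, 66.3% and 15.2% of all genes were called. In males the calls were 4 higher and 5 lower in CBS(5), 3 and 3 in CBS(8), 0 and 4 in DD1 and 3 and 3 in DD2, with medians of -0.06, 0.08, -0.18 and -0.05, against 0.03, 0.02, -0.02 and -0.03 over all genes tested. These are 33.3%, 22.2%, 14.8% and 22.2% of the list, where 32.7%, 32.3%, 12.7% and 18% of all genes were called, so that in DD2 females and in most males the share was close to or below that of all genes. In CSE(8) and MST 0 genes of the list were called in either sex.

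The 2 genes placed after urate in the list were higher in some strains. *CG30016*, which encodes a 5-hydroxyisourate hydrolase, was called higher in 5 of the 12 comparisons, with log2 fold changes of 1.58 in CBS(5), 1.30 in DD1 and 1.95 in DD2 females and 1.26 in CBS(5) and 0.98 in DD2 males. *CG6106* was called higher in 4, which were CBS(8), DD1 and DD2 females (1.05, 0.88 and 1.08) and CBS(5) males (0.68).

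Before urate, *DhpD*, a deaminase of guanine and pterins, was lower in 6 of 12, with -0.31 in CBS(8) and -0.25 in DD2 females and -0.60, -0.66, -0.62 and -0.41 in CBS(5), CBS(8), DD1 and DD2 males. *mal*, the cofactor sulphurase, went opposite ways in the sexes, being lower in DD1 and DD2 females (-0.50 and -0.74) and higher in CBS(5), CBS(8) and DD2 males (0.47, 0.71 and 0.62). *Hn* (phenylalanine hydroxylase, which needs a pteridine cofactor) was higher in CBS(8), DD1 and DD2 females (0.61, 0.50 and 0.63) and lower in males of all 4 strains without *Cbs* (-0.63, -0.72, -0.90 and -0.94). Of purine synthesis, *Prat2* was higher in CBS(8), DD1 and DD2 females (1.01, 1.17 and 1.58) and lower in CBS(5) males (-0.70), and *Gart* was higher in the same females (0.64, 0.56 and 0.53) and lower in DD1 males (-1.19). The lowest value of the list was that of *Gart* in DD1 males and the highest that of *CG30016* in DD2 females.

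The genes whose levels ran most like those of each member were found from group means of log2 CPM over the 18 groups without the backcross, which share the libraries and their depth, and are given as a description. *Uro* ran closest to *CG13313* (Pearson r = 0.959), *lncRNA:CR44526* (0.944) and *CG45061* (0.943). *CG13313* had means of 17.9 CPM in CBS(8) males and 15.2 CPM in CBS(5) males, against 0.81 CPM in control males. *AOX4* ran closest to *Obp69a* (0.942), which encodes an odorant-binding protein, *Orco* (0.935), the co-receptor of the odorant receptors, and *H15* (0.915). *Orco* had means of 1.76 and 2.17 CPM in CBS(5) and DD2 males, against 11.7 CPM in control males. Since *AOX4* has few counts, these values are rough.

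*ry* ran closest to *CG8306* (0.984), *Mdr49* (0.981) and *Tret1-1* (0.981), *AOX1* to *Idgf3* (0.964), *Cyp309a2* (0.962) and *Cyt-b5-r* (0.961), *AOX3* to *ptc* (0.977), *Tie* (0.966) and *vsg* (0.964) and *AOX2* to *CG31279* (0.899), *Sap-r* (0.857) and *luna* (0.853). Among the members, *AOX1* correlated with *ry* and with *AOX3* at 0.909 each, while *Uro* reached 0.593 with *ry*, 0.585 with *AOX1*, 0.556 with *AOX3* and 0.272 with *AOX2*, and -0.357 with *AOX4*.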

How the data were processed

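RNA-seq counts, the number of reads on each gene without normalization, were deposited by the authors for 57 libraries. Per the submitters' processing notes and methods, reads were trimmed with Trimmomatic 0.38, mapped to dm6 with STAR 2.5.0a and counted with featureCounts 1.5.0-p1. The strand setting and annotation version are not given in the sources used here. Rows that name no gene (12 per library) were left out; ambiguous reads were 4.04% to 4.87% in the 42 whole-body libraries of the 7 strains, and reads on no feature 0.482% to 1.62% there and 2.26% to 37.5% in thoraxes. Levels are CPM of the library total.

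Fold changes were fitted on counts with edgeR 4.0.16 (limma 3.58.1, R 4.3.3), using filterByExpr (minimum count 10, total 15), TMM, 1 mean per group, a quasi-likelihood test and Benjamini-Hochberg adjustment over all genes tested (called at 0.05). Whole females and males (21 libraries each), both (42), thoraxes (6 per sex), thorax and whole (12 per sex) and males with the backcross (24) were fitted apart. The fit was tested on simulated data. DESeq2 1.42.0, other scalings, filters, a replicate block, pairwise fits and left-out libraries were alternatives, and an ovary covariate was added after seeing the data.

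Members and lists were chosen with earlier results of these data known. The genes named are the members, 3 genes most correlated with each (at least 1 CPM on average, 0.5 CPM added), and pathway genes called in at least 4 of 12 comparisons or with the lowest or highest value. Markers not listed in the files were left out (2 of 34).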

Additional observations from a re-analysis of the deposited data

Results flagged for a closer look

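The effect of a deletion differed between females and males in 11 of 30 interaction tests of the 5 genes other than *Uro*. All 11 came from the fit of 42 libraries of whole flies and had the higher log2 fold change in females. Of 13535 genes, 13.6%, 17.8%, 21.5% and 31.3% passed in CBS(5), CBS(8), DD1 and DD2, and 0.813% in CSE(8). Without replicate 1 of every group 3 of the 30 tests passed. *AOX1* had already been named by the study. For *AOX1* the difference, females minus males, was 0.90 for CBS(5), 1.14 for CBS(8), 1.26 for DD1, 1.12 for DD2 and 0.83 for CSE(8). For *ry* it was 1.06 for CBS(5), 1.06 for CBS(8), 1.31 for DD1 and 1.27 for DD2. For *AOX2* it was 2.07 for CBS(8) and 1.87 for DD1. Over all genes the median difference was also above 0, at 0.38 for DD1, 0.21 for DD2, 0.10 for CBS(8), 0.09 for CBS(5) and 0.04 for CSE(8), and with thorax-based TMM 4 tests of the 5 genes other than *Uro* passed, of which 3 were higher in females. Groups of 3 libraries were too small to test single libraries as outliers.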

How the results depend on the processing

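With thorax-based TMM the log2 fold change of *AOX3* in females turned to -0.17 for CBS(5), -0.23 for CBS(8), -0.19 for DD1 and -0.48 for DD2, its female minus male difference in DD2 turned to -0.79, and control females against control males turned to 0.32 for *Uro*, 0.13 for *AOX2* and 0.57 for *AOX3*; this scaling moved the median of all genes. Over the 5 genes other than *Uro* it took the number of tests passed in whole females to 7, against 16, and for the difference between the sexes to 4, against 11. Over the same 5 genes DESeq2 passed 0 of 7 thorax tests, as edgeR did, and 2 of 5 backcross tests, against 4. The filter of at least 10 counts in every library passed 4 tests of thorax against whole control flies, against 7, since fewer genes were then tested. The cause of the other changes was not tested.

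Leaving out 1 replicate number gave 5 to 6 passed tests of all 6 genes between control sexes and 4 to 7 for thorax against whole control flies. Over the 5 genes other than *Uro*, leaving out replicate 1, 2 or 3 gave 3, 11 and 10 for the difference between the sexes. For the backcross it gave 1, 2 and 4. Results of leaving out 1 library at a time are given by gene above.

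With the replicate number as a block, the counts over the 5 genes other than *Uro* were 17 in whole females, against 16, and 9 in whole males, against 10. They stayed at 0 in thoraxes, 0 for double deletions, 11 for the difference between the sexes and 4 for the backcross. Over all 6 genes they were 6 between control sexes and 7 for thorax against whole control flies. The block called *ry* in CBS(5) females (0.74) and lost *AOX3* in DD2 males (0.45). Deviations of libraries with the same number had mean correlations of 0.02 in females and -0.053 in males of whole flies, against -0.011 and 0.025 for other numbers. In thoraxes they were 0.158 in females and 0.212 in males, against -0.087 and -0.1 for other numbers, but the lowest pairs were at -0.303 and 0.058, so the numbers were not taken as pairs. The block took the calls over all genes in male thoraxes to 30, against 210. Over 1879 single-gene values under alternatives, *Uro* included, 1669 kept their direction and side of the threshold, 88 changed sign without being called, 83 lost the call, 31 gained one and 8 reversed. As *Uro* is in these totals, they describe the processing and are not support for its changes. Upper-quartile factors and the strict filter were not run for the backcross, nor thorax-based TMM for thorax against whole flies. *AOX4* and *AOX2* are limited by their depth, and intervals cover counting error only.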
